A study of Mus musculus with 10 samples.

Results

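The 10 genes described here encode the apolipoproteins and the fat absorption machinery of the intestinal lining cell: Fabp1, Fabp2, Rbp2, Dgat1, Dgat2, Mttp, Apob, Apoa1, Apoa4 and Apoc3. They were taken by gene symbol alone from a count table of 20579 genes, and all 10 passed the filter on low counts that left 16710 genes for testing. RNA was sequenced from cells carrying green fluorescent protein under the Hopx promoter, sorted from the intestines of E18.5 mouse embryos of the strain label C57BL6/J / 129S4. There were 5 p57KO libraries, without the cyclin-dependent kinase inhibitor p57Kip2 encoded by Cdkn1c, and 5 p57WT libraries, and both genotypes carried the reporter. The labels do not say in which cells or how the p57 allele was removed, nor which animals gave which library. If the libraries were not separate animals, the p-values measure only the spread between these samples.

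Dietary fat enters the enterocyte, the absorptive cell of the villus, as fatty acids and monoglycerides. Small binding proteins carry these lipids and retinol through the cytosol, and acyltransferases at the endoplasmic reticulum rebuild them into triglyceride. The transfer protein Mttp loads that triglyceride onto apolipoprotein B, smaller apolipoproteins join the surface, and the particle leaves the cell as a chylomicron. Most of these genes mark differentiated enterocytes, and several of them are also strongly expressed in liver.

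Each library label also carries a number of unstated meaning. It is 608 for p57KO 3 to 5, 740 for p57WT 2 to 5 and 607 for the remaining 3 libraries (p57KO 1, p57KO 2, p57WT 1), so that number and genotype cannot be told apart outside 607. Total counts lay between 10684179 and 26809231 in p57KO libraries and between 8037887 and 25527896 in p57WT libraries. Ribosomal RNA repeats took less than 1% of counts in p57KO 1 to 4 and in p57WT 2, and between 9.47% and 17.0% in the other libraries. Cdkn1c, which checks the genotype labels, averaged 0.840 ± 0.764 CPM (counts relative to the TMM-scaled library total) in p57KO and 230.4 ± 129 CPM in p57WT (SD, n = 5 each), a log2 fold change of -8.21 (SE 0.69, edgeR adjusted p = 9.99e-05). Without p57KO 1 that fold change was -8.82. Hopx, the gene whose promoter drove the sort, averaged 151 ± 30.6 CPM in p57KO and 71.3 ± 6.73 CPM in p57WT (SD, n = 5 each), and its log2 fold change of 1.08 became -0.28 and -1.18 when libraries were scaled to epithelial or to enterocyte markers, against medians of -1.26 and -2.23 over all genes under the same scalings. The cell type label names intestinal stem cells, yet smooth muscle markers summed to between 5692 and 38732 CPM in p57KO libraries and between 57315 and 117713 CPM in p57WT libraries.

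Apoa1, Apoc3 and Apoa4 lie next to each other on chromosome 9 (GRCm38). Apoa1 spans 46228580 to 46230466 on the plus strand, Apoc3 spans 46232933 to 46235636 on the minus strand, and Apoa4 spans 46240696 to 46243459 on the plus strand, so the cluster covers 14880 bases. The other members are scattered over the genome. Rbp2 lies on chromosome 9 from 98486115 to 98509781, and Fabp2 (122895072 to 122899506) and Mttp (138089854 to 138144968) lie on chromosome 3. Fabp1 is on chromosome 6 (71199827 to 71205023), Dgat2 on chromosome 7 (99153658 to 99182719), Apob on chromosome 12 (7977648 to 8016835) and Dgat1 on chromosome 15 (76502015 to 76511953). All 10 are protein-coding genes.

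Promoters are shown because genes from separate loci differed in the same direction. HNF4 proteins, nuclear receptors of gut and liver known to act on apolipoprotein genes, bind a direct repeat of the form CAAAGTNCA. RefSeq promoter windows of GRCm38.p6, 250 bases before to 50 after the annotated start, were matched for 7 of the 10 members. Both strands were searched for CAAAGTNCA and for the wider CAAAGNNCA, which contains it, with the motifs picked while the sequences were in view. The 250 bases before the start follow for 3 members that hold CAAAGTNCA and for Apoa1, which holds neither form. Capitals mark the matches to the wider form, read on either strand.
Apoa4 (chr9:46240594-46240843, plus strand): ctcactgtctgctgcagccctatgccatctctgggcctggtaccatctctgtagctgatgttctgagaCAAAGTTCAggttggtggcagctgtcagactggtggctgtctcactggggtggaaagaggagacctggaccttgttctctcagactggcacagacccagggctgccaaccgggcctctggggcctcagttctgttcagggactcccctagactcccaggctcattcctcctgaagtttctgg
Rbp2 (chr9:98490287-98490536, plus strand): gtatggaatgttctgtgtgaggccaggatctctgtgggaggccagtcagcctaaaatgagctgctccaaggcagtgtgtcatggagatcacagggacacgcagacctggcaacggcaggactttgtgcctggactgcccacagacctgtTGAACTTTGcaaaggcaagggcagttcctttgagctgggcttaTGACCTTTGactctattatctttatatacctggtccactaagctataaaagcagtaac
Fabp2 (chr3:122894822-122895071, plus strand): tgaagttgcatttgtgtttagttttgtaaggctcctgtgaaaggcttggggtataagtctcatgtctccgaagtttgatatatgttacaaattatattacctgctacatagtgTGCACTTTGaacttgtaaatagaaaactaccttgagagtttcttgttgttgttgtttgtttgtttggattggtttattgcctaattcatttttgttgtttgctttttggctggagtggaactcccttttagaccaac
Apoa1 (chr9:46228380-46228629, plus strand): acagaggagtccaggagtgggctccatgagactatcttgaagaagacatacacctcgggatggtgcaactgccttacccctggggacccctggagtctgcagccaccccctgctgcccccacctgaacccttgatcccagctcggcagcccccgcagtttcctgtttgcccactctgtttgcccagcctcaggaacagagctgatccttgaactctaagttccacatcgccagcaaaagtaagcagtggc
Positions are counted from the RefSeq start, which is not always the start of the GENCODE span given above. It is the same base for Fabp2, and lies 50 bases downstream of the GENCODE start for Apoa1 and 148 bases downstream for Apoa4, so those windows reach into the spans given. For Rbp2 it lies 4422 bases inside the span, at the start of another GENCODE transcript of the gene. The match in Apoa4 lay 182 to 174 bases before the RefSeq start on the plus strand. In Rbp2 the first match lay 101 to 93 bases before the start and a second, of the wider form only, 58 to 50 bases before it, both on the minus strand. In Fabp2 it lay 137 to 129 bases before the start on the minus strand. CAAAGTNCA was present in 3 of the 7 member windows and in 464 of 32851 RefSeq windows of the same length (1.41%). The wider form was present in 4 of 7, with Apob as the fourth, and in 6.36% of all windows. A form bound by GATA proteins, GATAAG, was present in 2 of the 7 member windows and in 7.44% of all. A form bound by CDX proteins, TTTATG, was present in 1 of 7 and in 11.9% of all. The core promoter letters TATAAA were present in 3 of 7 and in 13.6% of all. A match describes these letters and was not tested as a binding site. A window without a match, such as that of Apoa1, may still hold a site with other letters.

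All 10 genes were higher in p57KO than in p57WT cells. By edgeR's quasi-likelihood test with Benjamini-Hochberg adjustment over all 16710 genes, 10 of 10 passed an adjusted p below 0.05 as higher and 0 as lower, and 0 were lower at an unadjusted p below 0.05. Of all genes tested, 19.3% were called higher and 17.2% lower. The median log2 fold change was 2.42 over the 10 genes and 0.08 over all genes tested. In 8 of the 10, every p57KO library lay above every p57WT library, which held for 11.5% of all genes. In bulk RNA, more cells of a type and more RNA per cell cannot be told apart.

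The plot of the 10 genes by library shows this separation and the spread within each genotype.

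**Figure D1:**
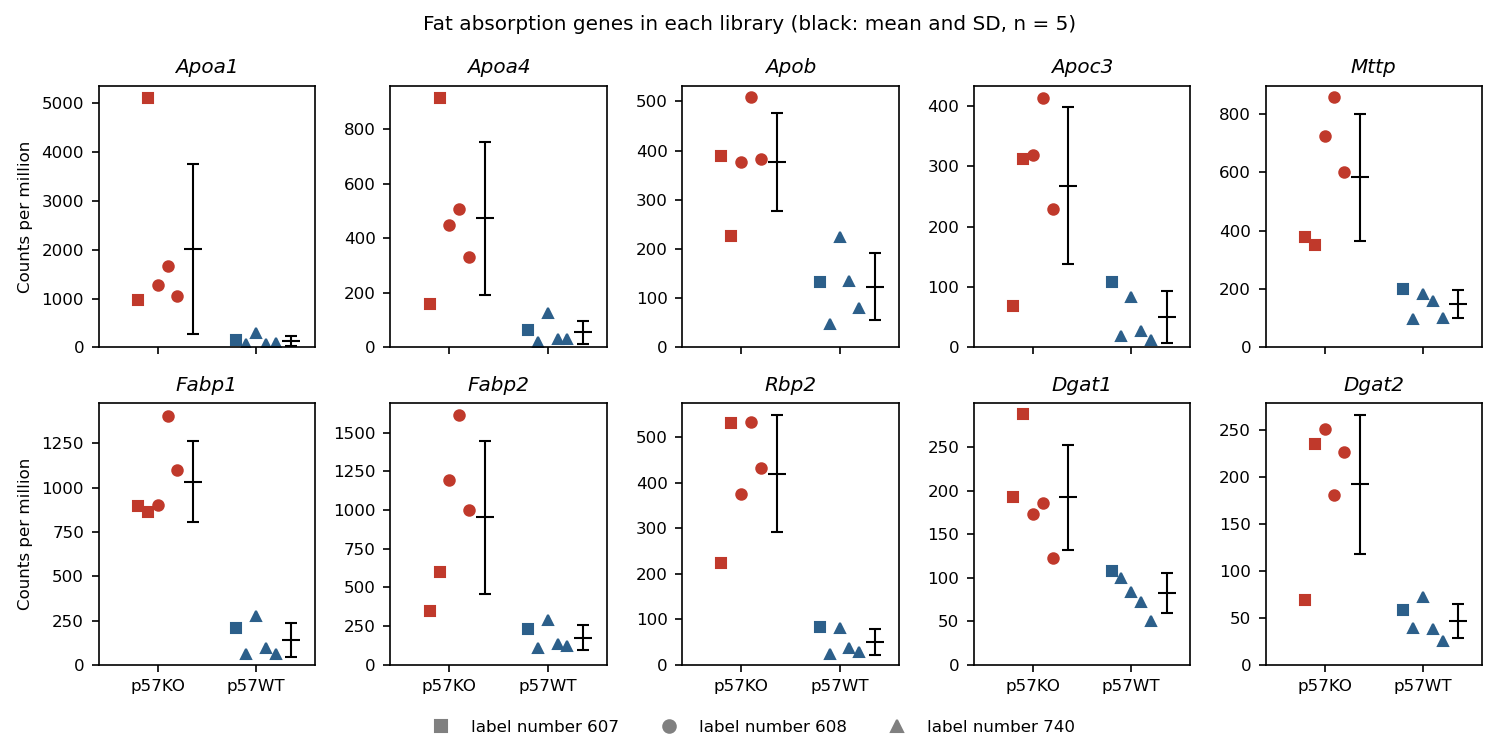
Level of each gene in CPM (y axes, each starting at 0) in the 5 p57KO libraries (red) and the 5 p57WT libraries (blue), with marker shape giving the label number and black bars the mean and SD (n = 5 each). Apoc3 and Dgat2 are the genes in which a p57KO library, p57KO 1, falls among the p57WT libraries, and p57KO 2 stands far above the others for Apoa1 at 5101 CPM.

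The binding proteins that ferry lipid through the cytosol were called higher in p57KO cells throughout. Fabp1, the liver-type fatty acid-binding protein that enterocytes also make, had 898, 862, 904, 1406 and 1099.8 CPM in p57KO 1 to 5, against 208, 63.4, 274, 97.6 and 62.2 CPM in p57WT 1 to 5. Every p57KO library was above every p57WT library, and the 5 p57KO values lay within a 1.63-fold range, the narrowest of the 10 genes. Its log2 fold change was 2.87 (SE 0.44, edgeR adjusted p = 0.000697). Fabp2, the intestinal fatty acid-binding protein, had 351, 601, 1195, 1612 and 1001 CPM in p57KO 1 to 5, against 232, 107, 291, 132 and 123 CPM in p57WT 1 to 5. The groups did not overlap, but the 2 p57KO libraries of number 607 were below the 3 of number 608. Its log2 fold change was 2.43 (SE 0.43, edgeR adjusted p = 0.00146).

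Rbp2, the cellular retinol-binding protein of the enterocyte that carries newly absorbed vitamin A, had the smallest adjusted p of the set. It had 224, 529.8, 376, 534 and 433 CPM in p57KO 1 to 5, against 83.0, 23.0, 80.2, 36.9 and 27.5 CPM in p57WT 1 to 5. All p57KO libraries were above all p57WT libraries, with p57KO 1 the lowest of its genotype. The log2 fold change was 3.07 (SE 0.42, edgeR adjusted p = 0.000403). A predicted transcript, Gm37113, overlaps Rbp2 on the same strand, so reads there could be split between the features.

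The diacylglycerol acyltransferases Dgat1 and Dgat2 are unrelated enzymes that both add the last fatty acid to triglyceride. Dgat1 had 193, 288, 173, 185 and 122 CPM in p57KO 1 to 5, against 108, 100.1, 83.4, 72.2 and 49.8 CPM in p57WT 1 to 5. The groups did not overlap, although p57KO 5 and p57WT 1 were close, and the log2 fold change of 1.22 (SE 0.28, edgeR adjusted p = 0.00527) was the smallest of the 10. Dgat2 had 68.6, 235, 251, 181 and 226 CPM in p57KO 1 to 5, against 57.9, 39.6, 71.9, 38.5 and 26.0 CPM in p57WT 1 to 5. Here p57KO 1 sat just below p57WT 3, while the other 4 p57KO libraries were above every p57WT library. The log2 fold change was 2.04 (SE 0.37, edgeR adjusted p = 0.00149).

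Mttp and Apob act together in the assembly of the particle. Mttp, which transfers triglyceride onto nascent apolipoprotein B, had 379, 350.2, 724, 858 and 603 CPM in p57KO 1 to 5, against 201, 97.6, 183, 158 and 99.9 CPM in p57WT 1 to 5. The groups did not overlap, and the 2 p57KO libraries of number 607 were again the lower ones. Its log2 fold change was 1.98 (SE 0.33, edgeR adjusted p = 0.00106). The tRNA methyltransferase gene Trmt10a overlaps Mttp on the opposite strand, and the sources used here do not give the strand setting of the counting, so their reads could not be told apart. Genes not annotated as protein-coding also overlap Mttp, Fabp2 and Apoa4 on the opposite strand, and the same limit holds for the values of these members. Trmt10a averaged 12.5 ± 5.09 CPM in p57KO and 11.4 ± 5.14 CPM in p57WT (SD, n = 5 each), with a log2 fold change of 0.13 that did not pass. Apob, the structural protein that stays with the particle, had 389, 227, 378, 508 and 384 CPM in p57KO 1 to 5, against 132, 47.6, 225, 134 and 79.5 CPM in p57WT 1 to 5. The lowest p57KO value, in p57KO 2, was just above the highest p57WT value, in p57WT 3. The log2 fold change was 1.61 (SE 0.37, edgeR adjusted p = 0.00592).

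The exchangeable apolipoproteins of the chromosome 9 cluster had larger fold changes than Apob and varied more among p57KO libraries, with coefficients of variation of 86.7% for Apoa1, 59.3% for Apoa4 and 48.2% for Apoc3 against 26.5% for Apob. Such spread was not limited to the cluster, as Fabp2 had 52.0%. Apoa1, the main protein of high-density lipoprotein and the activator of lecithin-cholesterol acyltransferase, had 977, 5101, 1276, 1662 and 1057 CPM in p57KO 1 to 5, against 157, 71.4, 298, 71.7 and 82.0 CPM in p57WT 1 to 5. All p57KO libraries were above all p57WT libraries, and p57KO 2 was far above the other 4. The log2 fold change was 3.89 (SE 0.61, edgeR adjusted p = 0.000761), the largest of the set, and 3.21 without p57KO 2 (edgeR adjusted p = 0.00110). Apoa4, made mostly by the intestine and secreted on chylomicrons, had 159, 914, 451, 509 and 333 CPM in p57KO 1 to 5, against 65.7, 21.3, 127, 30.7 and 32.0 CPM in p57WT 1 to 5. The groups did not overlap, with p57KO 1 closest to the p57WT libraries, and the log2 fold change was 3.10 (SE 0.56, edgeR adjusted p = 0.00149). Apoc3, which slows the clearance of triglyceride-rich particles by inhibiting lipoprotein lipase, had 68.3, 313, 319, 413 and 229 CPM in p57KO 1 to 5, against 108, 19.6, 84.0, 27.6 and 12.4 CPM in p57WT 1 to 5. The p57KO 1 value lay below those of p57WT 1 and p57WT 3, and the other 4 p57KO libraries were above every p57WT library. The log2 fold change was 2.41 (SE 0.61, edgeR adjusted p = 0.00872).

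The genes tested beside this cluster were not called higher. Apoa5, an apolipoprotein gene that starts at 46268633 on the same chromosome, was listed but not tested. Of 8 neighbouring genes listed, 7 were tested, 0 were called higher and 2 lower, with a median log2 fold change of -0.06 (0.08 over all genes). Scaled to epithelial or to enterocyte markers, all 7 were called lower, as were 61.1% and 84.2% of all genes, and their medians were -1.44 and -2.35 against -1.26 and -2.23 over all genes. Those 2 were Sidt2, at 46.4 CPM in the median p57KO library and 69.1 CPM in the median p57WT library (log2 fold change -0.83, edgeR adjusted p = 0.00783), and the smooth muscle gene Tagln, 292.521 kb from the cluster (log2 fold change -2.40, edgeR adjusted p = 0.00803). Without p57KO 5 the Tagln value was -3.07.

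Per kilobase of exon, the order of levels was led by Fabp1 in both genotypes. In p57KO libraries Fabp1 averaged 1869 ± 412 RPKM (CPM divided by the exon length in kilobases), followed by Apoa1 at 1629.9 ± 1413, Fabp2 at 987 ± 513, Rbp2 at 436 ± 133, Apoc3 at 265 ± 128 and Apoa4 at 261 ± 155 RPKM (SD, n = 5 each). Mttp at 93.9 ± 35.2, Dgat1 at 62.9 ± 19.7, Dgat2 at 62.3 ± 23.9 and Apob at 27.1 ± 7.17 RPKM came last. In p57WT libraries the order began with Fabp1 at 255 ± 172, Fabp2 at 183 ± 83.3, Apoa1 at 110.2 ± 78.9 and Rbp2 at 52.1 ± 30.3 RPKM, and ended with Apob at 8.88 ± 4.83 RPKM (SD, n = 5 each). The ranges of neighbours in either order overlapped in every case. Together the 10 genes took 0.368%, 0.888%, 0.644%, 0.806% and 0.590% of all counts in p57KO 1 to 5, against 0.137%, 0.0585%, 0.169%, 0.0761% and 0.0556% in p57WT 1 to 5. Apoa1 made up 54.1% of the members' counts in p57KO 2, between 19.3% and 26.3% in the other p57KO libraries and between 8.96% and 17.4% in p57WT libraries.

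The balance between members can be read within a library, where no scaling between libraries enters. All 6 ratios computed were chosen with the values known, and adjustment over the 6 does not correct for that choice. Only Apob over Apoa1, which holds the member with the largest fold change, passed that adjustment. On the RPKM scale that ratio was 0.0354, 0.00395, 0.0263, 0.0271 and 0.0322 in p57KO 1 to 5, against 0.0745, 0.0592, 0.0668, 0.166 and 0.0860 in p57WT 1 to 5. Every p57KO library was below every p57WT library. The difference in mean log2 ratio was -2.07 (exact two-sided permutation test p = 0.00794, the smallest that 5 against 5 allows, Benjamini-Hochberg p = 0.0476), and -1.49 without p57KO 2 (exact permutation p = 0.0159, unadjusted). Within 607 it was -2.66 between 2 p57KO libraries and 1 p57WT library, with no test. The ratio differences of Apoa4 over Apoa1 (-0.63), Apoc3 over Apoa1 (-1.15), Fabp1 over Fabp2 (0.76), Dgat2 over Dgat1 (0.78) and Mttp over Apob (0.20) had Benjamini-Hochberg p-values between 0.0952 and 0.460 by the same exact permutation test.

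Within a genotype, some members kept closer company than others. After each gene was centred on its genotype's mean log2 CPM, Fabp1 and Rbp2 were the closest pair, with a root mean square difference of 0.324 over the 10 libraries. Mttp and Fabp2 (0.334) and Apoa1 and Apoa4 (0.351) came next. Apoc3, which lies between those 2 on chromosome 9, was at 0.813 from Apoa1 and 0.581 from Apoa4. Apoc3 and Dgat1 were farthest apart at 0.970. Measured over all libraries against the mean profile of the 10 members, the closest non-members with a mean of at least 5 CPM were Cideb (root mean square difference 0.234), H2-Q2 (0.297), Pdzk1ip1 (0.311), Cpn1 (0.313) and Sult1b1 (0.321). Cideb is a lipid droplet protein that acts in lipoprotein lipidation, and Sult1b1 is a sulfotransferase. H2-Q2 belongs to a family of near-identical class I genes, so its counts are uncertain. These distances share libraries and depth and are a description.

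The rest of the fat handling pathway was examined through 7 lists. Of their 78 tested genes, 48 (61.5%) were called higher and 3 (3.85%) lower in p57KO, against 19.3% and 17.2% of all genes. Scaled to epithelial markers, 14 (17.9%) were called higher and 21 (26.9%) lower, against 2.69% and 61.1% of all genes. Scaled to enterocyte markers, 4 (5.13%) were called higher and 41 (52.6%) lower, against 0.993% and 84.2% of all genes. Their median log2 fold changes under these scalings were -0.24 and -1.16, against -1.26 and -2.23 over all genes. Among other chylomicron assembly genes 8 of 11 tested were called higher and 0 lower (median 1.07). Apom, an apolipoprotein that carries sphingosine-1-phosphate, had a log2 fold change of 4.74, Pla2g12b 2.46, Cideb 2.65 and Mia2, a cargo receptor for large secretory loads, 0.96 (edgeR adjusted p between 0.000178 and 0.00491). All 3 genes of Apob mRNA editing, which yields the short intestinal form of apolipoprotein B, were called higher: the deaminase Apobec1 at 2.32 (1.63 without p57KO 1 and p57KO 2) and its cofactors A1cf at 1.41 and Rbm47 at 1.04 on the log2 scale. Rbm47 missed the threshold without p57WT 5 (edgeR adjusted p = 0.0525).

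Lipid and sterol uptake and efflux genes were called higher in 9 of 12 and lower in 0 (median 2.03). Acsl5, an acyl-CoA synthetase, had a log2 fold change of 2.71, the ileal bile acid transporter Slc10a2 3.38, the cholesterol importer Npc1l1 1.68 and the sterol exporter subunit Abcg5 2.50. Of 14 other triglyceride and cholesterol ester genes 6 were called higher and 0 lower (median 0.55). The monoacylglycerol acyltransferase Mogat2 (2.54), which feeds the Dgat enzymes, led them, with the droplet coat genes Plin2 (1.86) and Plin3 (1.43) and the cholesterol acyltransferase Soat2 (1.68). Of the 9 genes of the glycerol phosphate route, named after their values were seen, Agpat2 passed (1.49, edgeR adjusted p = 0.00262, but -0.79 with enterocyte scaling). The other 8 did not pass, with values from -0.67 for Agpat1 to 0.57 for Gpat3.

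Lipolysis and oxidation genes were mixed, with 6 of 13 called higher and 2 lower (median 0.67). Cpt2 (1.32) and Hadhb (1.06) of mitochondrial oxidation were higher. The lower ones were the monoglyceride lipase Mgll (-2.01, edgeR adjusted p = 0.00198) and the hormone-sensitive lipase Lipe (-1.74, edgeR adjusted p = 0.00302). Retinoid and carotenoid genes beside Rbp2 were called higher in 7 of 10 and lower in 1 (median 2.19). They included the plasma retinol carrier Rbp4 at 5.38 (4.77 without p57KO 2), its partner Ttr at 2.53, the alcohol dehydrogenase Adh1 at 3.53 and the carotenoid-cleaving Bco2 at 3.13, and the lower gene was the retinol dehydrogenase Rdh10 at -0.88. Of 15 transcription regulators of these pathways 9 were called higher and 0 lower (median 0.93). The bile acid receptor Nr1h4 (2.54), Hnf4g (2.05), Prdm1 (2.00) and Creb3l3 (1.93) had the smallest p-values. Hnf4a, named after its values were seen, had 0.87 (edgeR adjusted p = 0.0263), missed the threshold without any one of p57KO 3, p57KO 4 or p57WT 2 to 5 (edgeR adjusted p between 0.0508 and 0.0696) and was -0.16 within 607.

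**Figure D2:**
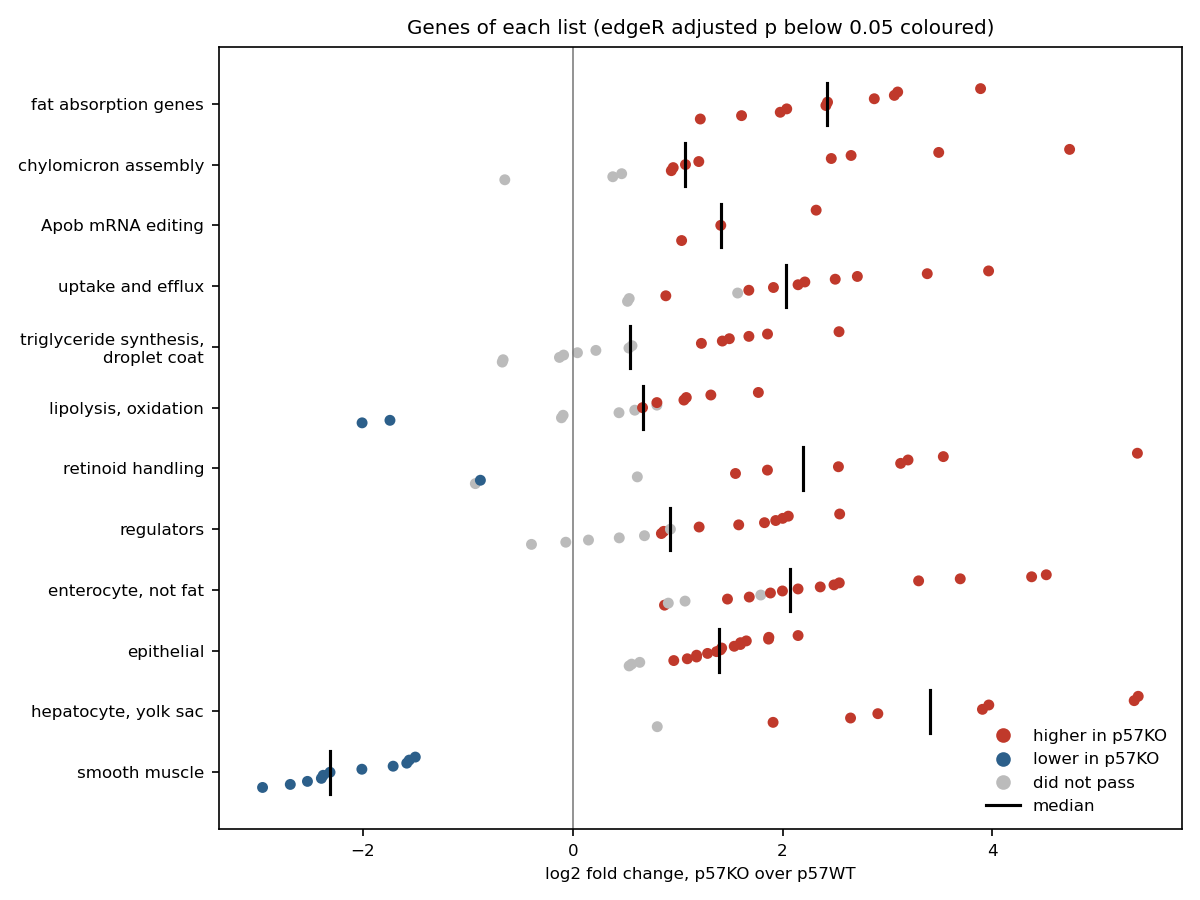
Log2 fold change of p57KO over p57WT (x axis) for each tested gene of each list (rows), coloured by direction where the edgeR adjusted p was below 0.05, with a black bar at the list's median. The fat absorption genes lie between 1.22 and 3.89, all called higher, and every smooth muscle marker is called lower.

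Other enterocyte genes moved with the members. Of 16 tested enterocyte markers outside fat handling, 13 were called higher and 0 lower (median 2.07), among them the brush border disaccharidase Sis (4.37), the keratin Krt20 (4.51) and the glucose transporter Slc5a1 (2.54). Their summed level ranged from 1898 to 3370 CPM in p57KO libraries and from 507 to 1058 CPM in p57WT libraries. General epithelial markers were called higher in 15 of 18 and lower in 0 (median 1.39), with summed levels of 9501 to 19396 CPM in p57KO and 3292 to 7887 CPM in p57WT, and Epcam at 1.37. Smooth muscle markers were called lower in 11 of 11 (median -2.31), and fibroblast markers in 5 of 6 (median -2.36).

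**Figure D3:**
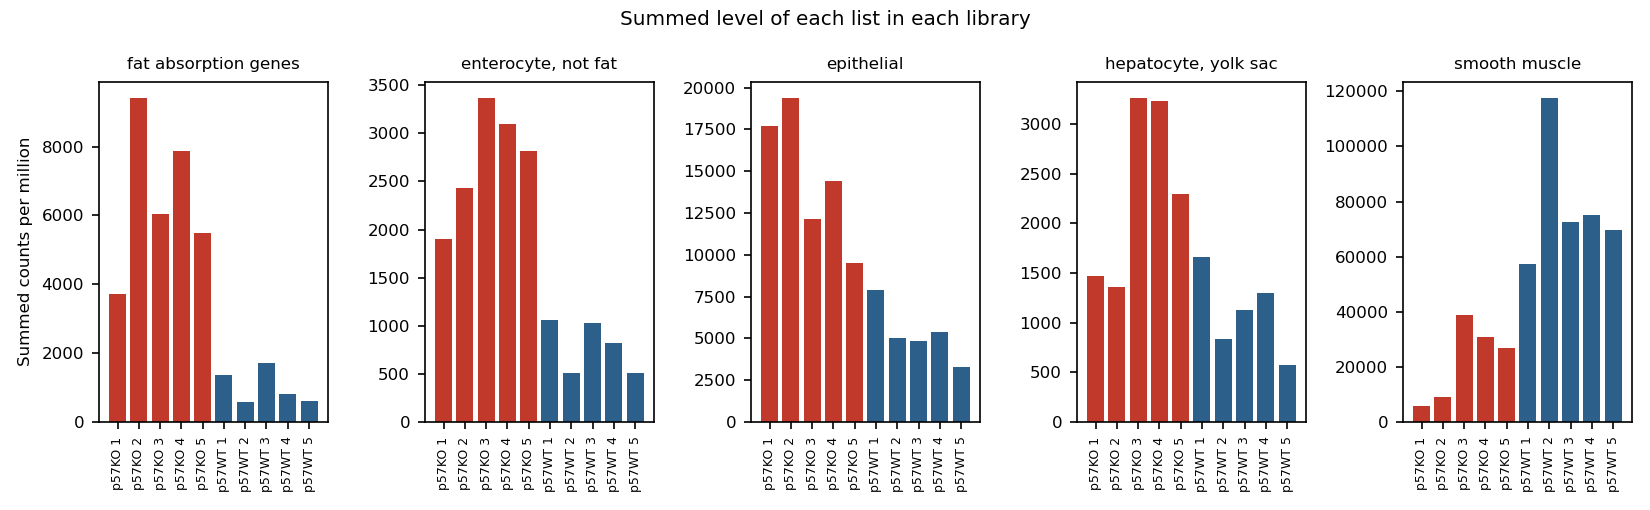
Summed CPM (y axes, each starting at 0) of the 10 fat absorption genes and of 4 marker lists in each p57KO library (red) and each p57WT library (blue). The fat absorption sum lies between 3706 and 9422 CPM in p57KO and between 590.4 and 1716 CPM in p57WT, while the smooth muscle sum runs the other way.

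Hepatocyte and yolk sac endoderm cells also make most of these apolipoproteins, and their markers were examined for that reason. Of 14 markers 8 could be tested, of which 7 were called higher and 0 lower (median 3.41). Their summed level ranged from 1355 to 3264 CPM in p57KO and from 570.5 to 1665 CPM in p57WT, most of it from Cps1, which the foetal intestine also expresses and which did not pass (0.81). Ambp had 126, 488, 255, 201 and 116 CPM in p57KO 1 to 5, against 13.7, 2.65, 2.78, 7.98 and 2.25 CPM in p57WT 1 to 5, and a log2 fold change of 5.35 (5.94 without p57WT 1). Afp, the foetal albumin-like protein, had 53.7, 109.8, 119, 95.5 and 46.2 CPM in p57KO 1 to 5, against 39.4, 2.85, 6.90, 1.31 and 17.5 CPM in p57WT 1 to 5, and a log2 fold change of 2.65 (3.59 without p57WT 1). The fibrinogen gene Fga stayed between 1.72 and 11.3 CPM in p57KO and between 0 and 0.916 CPM in p57WT. Alb was not analysed here. Neutrophil and macrophage markers were called higher in 9 of 9 (median 4.62) with sums of 203 to 8807 CPM in p57KO and 27.3 to 143 CPM in p57WT, erythroid markers in 6 of 6 (median 3.49) and exocrine pancreas markers in 2 of 2 (median 2.53). The part of these cell types in the members' result was not tested.

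Scaling to markers shows how the members moved relative to the epithelium. When libraries were scaled to the 18 epithelial markers, 6 of the 10 were still called higher against 2.69% of all genes, and the median was 1.31 over the members and -1.26 over all genes. Those 6 were Apoa1 (2.51), Rbp2 (1.89), Apoa4 (1.81), Fabp1 (1.71), Apoc3 (1.36) and Fabp2 (1.26), with edgeR adjusted p-values between 0.00103 and 0.0351. Dgat2 (0.84), Mttp (0.80), Apob (0.38) and Dgat1 (-0.10) did not pass. Other lists also stayed above all genes under this scaling. Of 16 tested enterocyte markers outside fat handling, 6 were called higher and 0 lower (median 0.84). The counts were 4 higher and 0 lower of 8 hepatocyte and yolk sac markers (median 2.22). Of 9 neutrophil and macrophage markers 6 were higher and 0 lower (median 2.93). When libraries were scaled to the 16 tested enterocyte markers outside fat handling, only Apoa1 passed (1.89, SE 0.57, edgeR adjusted p = 0.00331), against 0.993% of all genes called higher, and the median was 0.17 over the members and -2.23 over all genes. Apob (-0.53), Mttp (-0.36), Dgat2 (-0.27) and Dgat1 (-1.004) were then negative and did not pass. Of the 16 enterocyte markers themselves, 3 were then called higher and 3 lower. Of the 8 hepatocyte and yolk sac markers 3 were higher and 1 lower (median 1.05). Of the 9 neutrophil and macrophage markers 6 were higher and 0 lower (median 2.20).

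**Figure D4:**
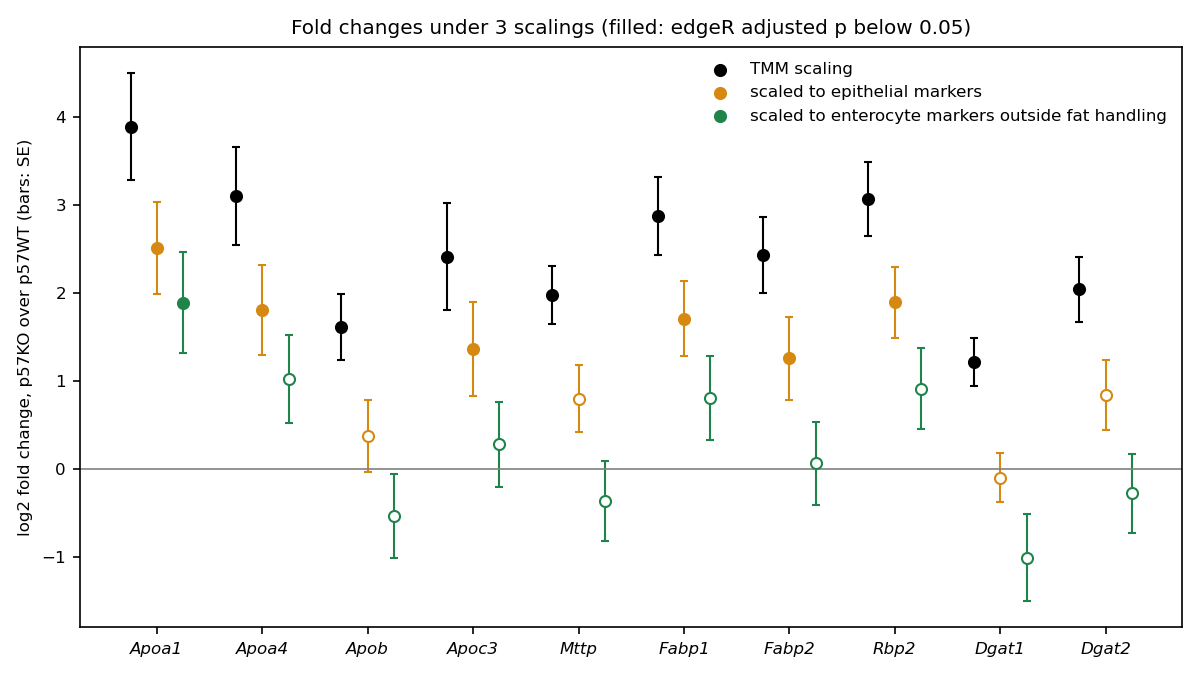
Log2 fold change of p57KO over p57WT with its SE (y axis) for each gene under TMM scaling (black), scaling to epithelial markers (orange) and scaling to enterocyte markers outside fat handling (green), filled where the edgeR adjusted p was below 0.05. All 10 points are filled under TMM scaling, 6 under epithelial scaling and 1, Apoa1 at 1.89, under enterocyte scaling.

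Within label number 607, the only number with both genotypes, 2 p57KO libraries stood against 1 p57WT library, which the fit assumed to vary like the others. All 10 log2 fold changes were positive, from 0.81 for Apoc3 to 4.27 for Apoa1, with a median of 1.30. By edgeR 0 of 10 passed, against 1.1% of all genes called higher, while 5 were below an unadjusted p of 0.05 and Apoa1 came closest (edgeR adjusted p = 0.0615). Between the p57KO libraries of 607 and of 608, 0 of 10 members passed by edgeR against 6.68% of all genes in either direction, and 2 were below an unadjusted p of 0.05. Those 2, Mttp and Fabp2, were lower in 607 by log2 fold changes of -0.997 and -1.41 (edgeR adjusted p = 0.118 and 0.0968). The share of all genes below an unadjusted p of 0.05 is not given for either fit. The unadjusted counts of 5 and 2 therefore cannot show whether the members differed from other genes. In the main edgeR fit 7923 of 16710 genes lay below that threshold. With a term for the share of ribosomal RNA, 9 of 10 members were called higher against 7.22% of all genes, and Dgat1 missed the threshold at 0.85 (edgeR adjusted p = 0.0859). Apobec1, Rbm47, Plin2 and Afp also missed it in that fit (edgeR adjusted p between 0.0589 and 0.109).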

How the data were processed

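The authors deposited raw read counts for every gene in each library, per the file headers, and beside them a signal value equal to the count over 1 size factor per library. It also held the authors' comparison as log2 fold changes with standard errors, a Wald score and p-values with adjusted p-values, per the file headers. Only the counts were used for the results. Per the submitters' processing notes the tools were Cufflinks 2.2.1, DESeq2 1.22.2, FastQC, HTSeq 1.0, STAR 2.6.1d and Trim Galore on mm10 (GRCm38). The sources used here give neither their roles nor the annotation release or strand setting. Coordinates and exon lengths came from GENCODE M21.

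Counts were tested with edgeR 4.0.16 in R 4.3.3 (quasi-likelihood, TMM scaling, expression filter, genotype only), Benjamini-Hochberg adjusted over 16710 genes; 3869 genes were removed by the filter. Every fold change is p57KO over p57WT on the log2 scale. Ratios were tested by exact permutation with scipy 1.17.1. Alternatives were DESeq2 1.42.0, limma 3.58.1 voom, RLE scaling, no filter, marker scaling, terms for label number and ribosomal RNA share, a replicate block and left-out libraries. The fit was tested on simulated data. Of 94 genes with a true absolute log2 fold change of 1, 5 were called with the right sign. At a true value of 2 it was 64 of 96, and 0 of 16134 unchanged genes were called. Few genes were changed in the simulation, whereas 6107 were called in the data, so the Benjamini-Hochberg adjustment was stricter in the simulation. These shares therefore do not give the rate of detection in the data. A gene that did not pass may still differ. At these depths 3 counts equal 0.105 to 0.392 CPM. Replicates of a genotype differed beyond sampling noise (chi-square per degree of freedom at least 9.50). Named genes were the members, Cdkn1c, Hopx, up to 4 genes per list with the smallest p, defining markers and the 5 genes closest in profile, unless said to be chosen after their values were seen; Lipe, Rdh10, Cps1 and Trmt10a were also named after their values were seen. A few genes that the rule chose are not reported here. The members and lists were chosen with earlier results of these data known.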

Additional observations from a re-analysis of the deposited data

Results flagged for a closer look

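The level of Apoa1 in p57KO 2 was 5101 CPM, standing far above the other 4 p57KO libraries, which lay between 977 and 1662 CPM. Its gap to the nearest library was 0.834 of the group's range on the CPM scale, above the 95% critical value of 0.71 for 5 libraries. On the log2 scale, p57KO 2 deviated from the p57KO mean by 1.65, p57KO 4 by 0.04 and p57KO 1 by -0.73. The gap was then below that critical value. The CPM flag was the 1 flag among the 20 groups examined (10 genes in 2 genotypes), and chance flags about 1 group in 20. In p57KO 2 Apoa4 was also the highest of its genotype at 914 CPM, whereas Apob was the lowest at 227 CPM. The summed neutrophil and macrophage markers were also highest there, at 8807 CPM. The part of these values in the Apoa1 level was not tested.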

How the results depend on the processing

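The 10 members were all called higher with DESeq2, RLE scaling, limma voom, no filter, the replicate block, without p57KO 1 and p57KO 2, and without each library in turn. Members called higher numbered 6 with epithelial scaling, 1 with enterocyte scaling and 0 within 607. Over all genes, 3226 higher and 2881 lower became 450 and 10202 with epithelial scaling, 166 and 14072 with enterocyte scaling, 183 and 826 within 607, and 1207 and 1752 with the ribosomal RNA term; leaving out each library gave 2405 to 3653 higher and 2246 to 3542 lower. Other fat handling genes, 48 higher and 3 lower, became 14 and 21 with epithelial scaling, 4 and 41 with enterocyte scaling, and 9 higher within 607; leaving out each library gave 43 to 51 higher and 3 to 5 lower, with 5 lower without p57KO 5. With epithelial scaling the sign turned for Dgat1 (-0.10), Hopx (-0.28), Mia2 (-0.37), Rbm47 (-0.30), Hadhb (-0.28) and Hnf4a (-0.31). With enterocyte scaling it turned for Apob (-0.53), Mttp (-0.36), Dgat1 (-1.004), Dgat2 (-0.27), Hopx (-1.18), Mia2 (-1.21), A1cf (-0.76), Rbm47 (-1.0001), Npc1l1 (-0.70), Plin3 (-0.94), Plin2 (-0.37), Soat2 (-0.40), Cpt2 (-1.05), Hadhb (-1.23), Prdm1 (-0.34), Creb3l3 (-0.16), Epcam (-0.72), Cdx2 (-1.10) and Hnf4a (-1.42). Within 607 it turned for Hnf4a (-0.16). Marker scaling shifted the median of all genes to -1.26 and -2.23. The contrast within 607 set 2 p57KO libraries against 1 p57WT library, and the members' median was also smaller there, at 1.30 against 2.42. The cause of these changes was not tested. The replicate numbers did not pair the libraries (correlations of same-numbered deviations between -0.166 and 0.239, and 3 of 10 libraries matched best with their own number); with the replicate block 2861 genes were higher and 2943 lower, and other fat handling genes called lower numbered 5. The lowest count of a member in any library was 105, and how depth bears on the calls was not tested.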
